A study of Oryctolagus cuniculus with 17 samples.

Results

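The genes described here are reported targets of ATF4, the transcription factor of the integrated stress response, together with ATF4 itself, in the lungs of preterm rabbit pups kept in hyperoxia or normoxia. A list of 36 gene symbols was matched to the human gene names of the count table, which has 13827 entries. 31 symbols were found, each in a single entry with a locus of its own, and all 31 passed the filter on low counts that left 13142 genes for testing. ATF4, ATF5, TRIB3, CBS and SLC7A5 are not analysed here, so the level of ATF4 mRNA itself is unknown.

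In the integrated stress response, kinases that sense misfolded protein, lack of amino acids, lack of heme or viral RNA phosphorylate the translation factor eIF2, which slows most protein synthesis but favours translation of the ATF4 mRNA. ATF4 then binds DNA, often with a C/EBP partner, and switches on genes for amino acid synthesis and uptake, tRNA charging, control of mTORC1 and feedback on the response. Because ATF4 is controlled largely through its translation, its target genes are the usual transcript readout.

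New Zealand White rabbits were taken by C-section at gestation day 28, before term, and the pups were kept in incubators at 95% oxygen (hyperoxia, HT) or 21% oxygen (normoxia, NT) until postnatal day 3, 5 or 7, with milk replacer given by tube. Hyperoxia after preterm birth is used as a model of bronchopulmonary dysplasia, the chronic lung disease of preterm infants. Poly(A) RNA of the total right lung homogenate was sequenced in 17 samples, 3 each in HT3, HT7, NT3, NT5 and NT7 and 2 in HT5. All groups share the preterm birth and the feeding, and fewer cells of a type cannot be told apart from less RNA per cell in such bulk tissue.

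Depth was from 13123731 to 18111086 counts per sample over all loci. Levels are given as CPM, counts scaled by TMM to a common library total, and log2 fold changes (log2FC) of hyperoxia against normoxia come from edgeR's quasi-likelihood test over all 13142 genes, with Benjamini-Hochberg adjustment over all of them. A gene is said to have risen or fallen where its adjusted p was under 0.05. CPM are not divided by gene length, so levels are compared between samples and not between genes. The summed alveolar type 1 cell markers (6 genes) ran from 1984 to 2635 CPM in HT7 and from 6756 to 7605 CPM in NT7, the summed endothelial markers (6 genes) from 855 to 1219.9 against 2075 to 2408 CPM, and the summed macrophage markers (6 genes) from 1841 to 2418 against 1099 to 1293 CPM. On day 7, 4 of the 6 alveolar type 1 markers and 4 of the 6 endothelial markers fell, and 3 of the 6 macrophage markers rose and 1 fell, where 23.7% of all genes rose and 23.7% fell. Neutrophil markers (5 genes) summed to 895 to 1254 CPM in HT3 and 259 to 617 CPM in NT3, with none called on day 3. No marker of these 4 cell types was at 0 in any group, and surfactant genes and other alveolar type 2 markers were abundant in every sample, with sums from 12586 to 33180 CPM. On day 3 the type 2 sums were 24794 to 28057 CPM in HT3 and 17460 to 20388 CPM in NT3, and they overlapped on days 5 and 7. Fibroblast markers (6 genes) summed to 6996 to 8488 CPM in HT3 and 9417 to 11631 CPM in NT3. Their sums were 5603 to 7108 CPM in HT5 and 8035 to 8976 CPM in NT5, and they overlapped on day 7. Skeletal muscle markers (7 genes) summed to 451 CPM in HT3 replicate 2 and 394 CPM in HT5 replicate 1, against 57.8 to 119 CPM in the other samples. By single genes, HT3 replicate 3 also held 289 counts of ACTA1 and 260 of MYH8, against 29 to 46 and 24 to 34 in NT3. Its MYLPF was lower, with 1273 counts against 1761 to 2018. The heart muscle marker NPPA had 115 counts in NT3 replicate 2 and 0 to 4 in the other samples. The part of these markers in the results was not tested.

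On day 3 of hyperoxia, 5 of the 31 genes rose and none fell, where 0.517% of all genes tested rose and 0.517% fell. The 5 genes were NUPR1, CHAC1, MTHFD2, SESN2 and PSAT1. On day 5, 15 rose and 4 fell, where 15.9% of all genes rose and 15.4% fell. On day 7, 22 rose and 4 fell, where 23.7% of all genes rose and 23.7% fell. The median log2FC of the 31 genes was 0.42 on day 3, 0.78 on day 5 and 1.08 on day 7, whereas that of all genes tested was 0.00, -0.02 and -0.01. With the study's thresholds for differentially expressed genes, an adjusted p under 0.01 with a log2FC above 2 or below -2, the counts were 0, 5 and 5 of 31 (0.0533%, 1.58% and 4.59% of all genes). By the separation of samples alone, every hyperoxia sample lay above every normoxia sample of the same day for 16 genes on day 3, 19 on day 5 and 23 on day 7 (12.8%, 26.5% and 27.3% of all genes), and below for 4, 5 and 4 (13.9%, 29.2% and 27.2%).

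The day 3 count is the least firm of these. Deviations of day 3 samples with the same replicate number from their group means correlated weakly, at 0.166, 0.131 and 0.199. Samples with different numbers were not compared in this way. With the replicate number as a block, only NUPR1 of the 31 genes was called on day 3 (edgeR adjusted p = 0.0163). Leaving out each of the 6 samples in turn left 0 to 3 genes. It was 0 without NT3 replicate 3, 3 without HT3 replicate 3, and 1 without any of HT3 replicates 1 and 2 and NT3 replicates 1 and 2. DESeq2's Wald test called 8, the additional 3 being CTH, SLC7A1 and SLC3A2, and it called 505 of all genes where edgeR called 136. Without HT5 replicate 1, the day 5 sample with high muscle markers, 15 genes were called higher on day 5 and 3 lower, with CEBPB gained and PSPH and SLC1A5 lost.

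**Figure D1:**
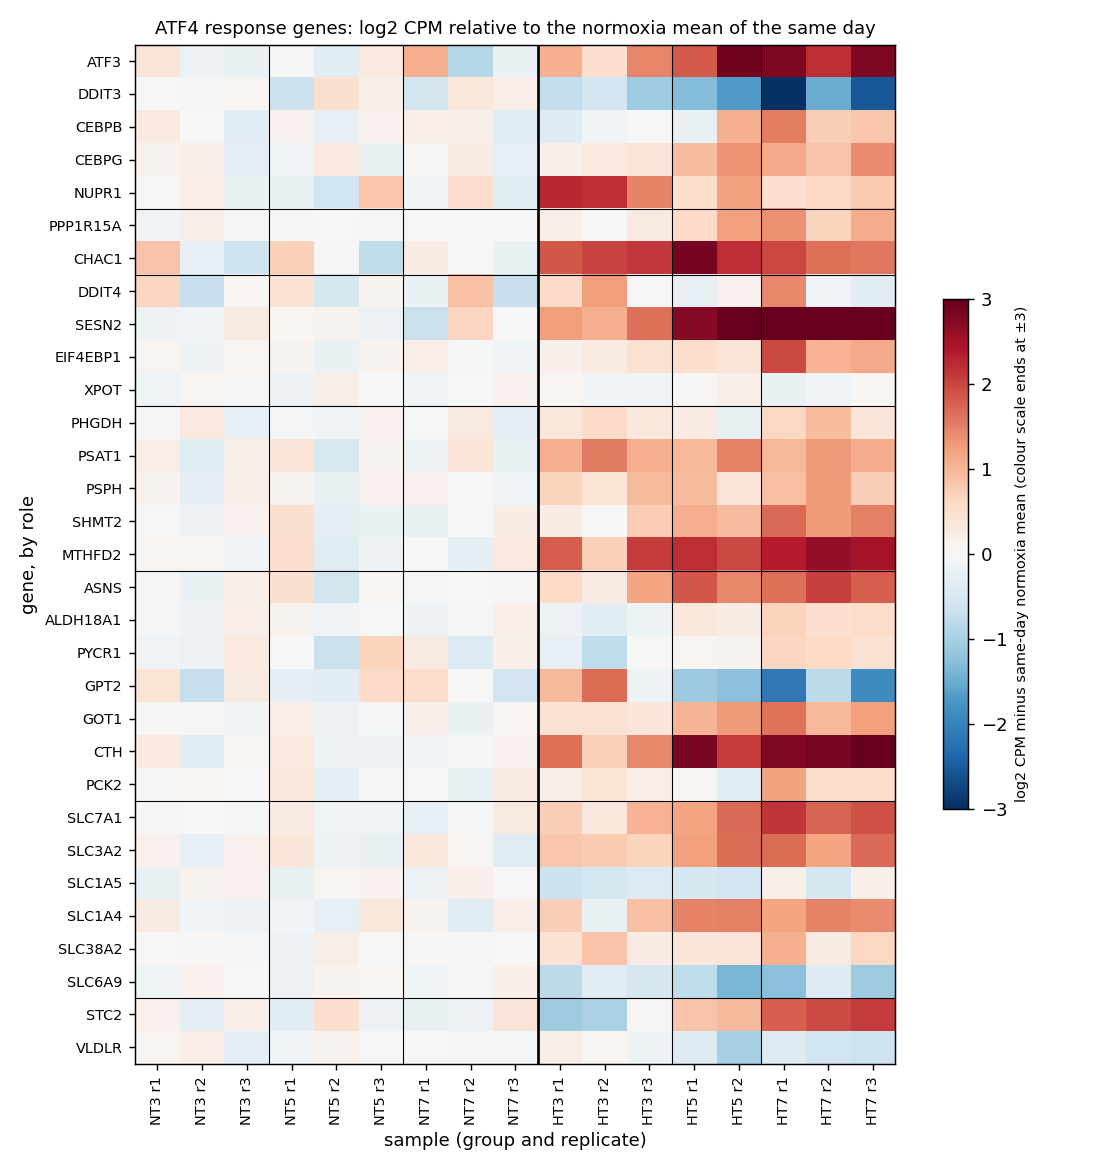
Level of each of the 31 genes (rows, grouped by role) in each of the 17 samples (columns, normoxia left of the thick line), as log2 CPM minus the mean of the normoxia samples of the same day, with red above and blue below and the colour scale ending at 3 on either side. SESN2 reaches 3.75 and CTH 3.40 in HT7, NUPR1 is highest on day 3, and DDIT3, SLC6A9 and, on days 5 and 7, GPT2 are blue in hyperoxia.

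Each hyperoxia sample was also set against the mean of the 9 normoxia samples of all days, so age differences in normoxia enter these values. The mean shift over the 31 genes was 0.43, 0.37 and 0.50 on the log2 scale in the HT3 replicates, 0.68 and 0.74 in HT5, and 1.12, 0.99 and 1.01 in HT7. The 9 normoxia samples lay between -0.17 and 0.10 on this scale, which is centred on them.

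Among the transcription factors, ATF3, a stress-induced repressor and activator of the ATF/CREB family (chromosome 16, 60423719 to 60431457, OryCun2.0), stood at 32.1, 25.3 and 38.7 CPM in NT5 and 114 and 234 CPM in HT5. On day 7 it stood at 55.8, 14.8 and 23.2 CPM in NT7 and 189, 125 and 186 CPM in HT7. Both days separated the groups without overlap, with wide spread inside them. ATF3 rose on day 5 (log2FC 2.44, SE 0.45, edgeR adjusted p = 0.00133) and on day 7 (2.41, SE 0.42, adjusted p = 0.000325). Without NT7 replicate 1, the highest normoxia sample, the day 7 value was 3.13, and without HT5 replicate 2 the day 5 value was 1.83. On day 3 the levels were 28.5, 18.9 and 18.7 CPM in NT3 and 45.3, 30.5 and 59.5 CPM in HT3, a log2FC of 1.03 that did not pass the test (edgeR adjusted p = 0.239) although the samples did not overlap.

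DDIT3, which encodes CHOP, the C/EBP-family factor known as the death-promoting arm of the response, moved the other way. Its levels were 7.90, 7.61 and 8.25 CPM in NT3 and 4.73, 5.32 and 3.73 CPM in HT3. They were 3.51, 7.83 and 6.20 CPM in NT5 against 2.20 and 1.62 CPM in HT5, and 4.24, 8.03 and 7.29 CPM in NT7 against 0.692, 2.18 and 0.973 CPM in HT7. All 8 hyperoxia samples were below every normoxia sample of their day. DDIT3 fell on day 5 (log2FC -1.62, SE 0.44, edgeR adjusted p = 0.0134) and on day 7 (-2.35, SE 0.40, adjusted p = 0.000253), and its day 3 log2FC was -0.78 (adjusted p = 0.32). Counts for DDIT3 were low, from 12 to 36 in HT7 and from 62 to 119 in NT7. The day 5 call was lost without HT5 replicate 2 (-1.40, adjusted p = 0.146) and with only the HT5 and NT5 samples in the fit (adjusted p = 0.0504), and without HT7 replicate 2 the day 7 value was -2.94.

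NUPR1, a small stress-induced chromatin cofactor (chromosome 6, 18564182 to 18564705), had its largest difference on day 3. It stood at 20.1, 23.5 and 17.7 CPM in NT3 and 98.2, 95.0 and 57.3 CPM in HT3, with every hyperoxia sample far above every normoxia sample. It rose on day 3 (log2FC 2.03, SE 0.34, edgeR adjusted p = 0.0115). On day 5 the levels were 16.4, 12.6 and 33.9 CPM in NT5 and 27.6 and 44.4 CPM in HT5, and on day 7 they were 21.7, 33.9 and 18.4 CPM in NT7 and 33.8, 36.5 and 40.9 CPM in HT7. The groups overlapped on both later days, and neither difference passed the test (0.78, adjusted p = 0.113, and 0.59, adjusted p = 0.157). The day 3 call was lost without HT3 replicate 2 (adjusted p = 0.0514), NT3 replicate 1 (0.0766) or NT3 replicate 3. With the replicate number as a block, NUPR1 was also called on day 5 (1.29, edgeR adjusted p = 0.0157), as it was without NT5 replicate 3 (1.32).

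CEBPG, the dimer partner of ATF4 at amino acid response elements, rose on day 5 (log2FC 1.15, SE 0.20, edgeR adjusted p = 0.000999) and on day 7 (1.15, SE 0.18, adjusted p = 0.00017). CEBPB, a C/EBP factor of inflammation and the acute phase, rose on day 7 (1.06, SE 0.29, adjusted p = 0.00737), and its values on days 3 and 5 were -0.16 and 0.55, neither called. Its HT5 samples stood apart from each other, replicate 1 at 62.1 CPM inside the NT5 range of 60.8 to 79.3 CPM and replicate 2 at 152 CPM above it. Without HT5 replicate 1 the day 5 value of CEBPB was 1.06 and passed the test, and without HT5 replicate 2 it was -0.23.

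In the feedback and glutathione group, PPP1R15A, which encodes the GADD34 subunit that directs a phosphatase to eIF2 and so ends the response, rose on day 5 (log2FC 0.94, SE 0.19, edgeR adjusted p = 0.00235) and on day 7 (1.08, SE 0.17, adjusted p = 0.000187). Its NT7 samples ran from 62.2 to 63.8 CPM and its HT7 samples from 100.0 to 163 CPM. The day 5 call was lost without HT5 replicate 2 (0.57, adjusted p = 0.0854).

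CHAC1, an enzyme that breaks down glutathione (chromosome 17, 31129756 to 31131539), was among the least counted of the genes. It stood at 1.01, 0.403 and 0.284 CPM in NT3 and 2.13, 2.38 and 2.57 CPM in HT3. On day 5 it stood at 0.788, 0.446 and 0.207 CPM in NT5 and 3.92 and 2.43 CPM in HT5, and on day 7 at 1.30, 1.08 and 0.935 CPM in NT7 and 4.73, 3.69 and 3.48 CPM in HT7. No normoxia sample reached the lowest hyperoxia sample on any day, and the counts behind these values ran from 4 to 82. CHAC1 rose on day 3 (log2FC 2.05, SE 0.45, edgeR adjusted p = 0.0429), day 5 (2.72, SE 0.49, adjusted p = 0.00124) and day 7 (1.84, SE 0.43, adjusted p = 0.0027). The day 3 call of CHAC1 was lost with the replicate block (adjusted p = 0.0725) and with only the groups compared in the fit, and its value ran from 1.74 without NT3 replicate 3 to 2.75 without NT3 replicate 1, the only sample whose omission kept the call.

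Of the genes for mTORC1 and translation control, SESN2 (sestrin 2, a leucine sensor that restrains mTORC1, chromosome 13, 137261106 to 137282265) had the largest rise of the 31 on days 5 and 7. It stood at 7.28, 7.51 and 9.79 CPM in NT3 and 19.5, 17.3 and 25.9 CPM in HT3, at 9.57, 9.87 and 8.11 CPM in NT5 and 61.3 and 114 CPM in HT5, and at 6.01, 15.1 and 9.66 CPM in NT7 and 124, 81.8 and 130.3 CPM in HT7. The groups did not overlap on any day, and all HT5 and HT7 samples were above all HT3 samples. The rise was 2.55-fold on day 3 (log2FC 1.35, SE 0.30, edgeR adjusted p = 0.0492), 9.54-fold on day 5 (3.25, SE 0.33, adjusted p = 4.45e-05) and 10.9-fold on day 7 (3.45, SE 0.32, adjusted p = 2.94e-06). The day 3 call of SESN2 was lost without any of the 6 samples (adjusted p from 0.101 to 0.201), under the replicate block (0.104) and with no count filter. The day 5 call held without either HT5 sample, with 3.63 without replicate 1 and 2.74 without replicate 2.

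EIF4EBP1, which encodes a repressor of cap-dependent translation, stood at 18.2, 15.2 and 14.5 CPM in NT7 and 62.9, 33.0 and 34.9 CPM in HT7. It rose on day 7 (log2FC 1.45, SE 0.21, edgeR adjusted p = 8.53e-05), with values of 0.30 on day 3 and 0.45 on day 5 that did not pass. DDIT4, an mTORC1 inhibitor that also answers to hypoxia and glucocorticoids, overlapped between the groups on all 3 days, with log2FC values of 0.60, -0.10 and 0.41 and SEs from 0.50 to 0.57. The day 5 value of DDIT4 turned positive without HT5 replicate 1 (0.09) or NT5 replicate 1 (0.14), and its day 7 value turned negative without HT7 replicate 1 (-0.37). XPOT, the exporter of tRNAs from the nucleus, also overlapped on all 3 days (-0.05, 0.11 and -0.07, SE from 0.11 to 0.13), and its day 7 value changed sign without NT7 replicate 3.

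**Figure D2:**
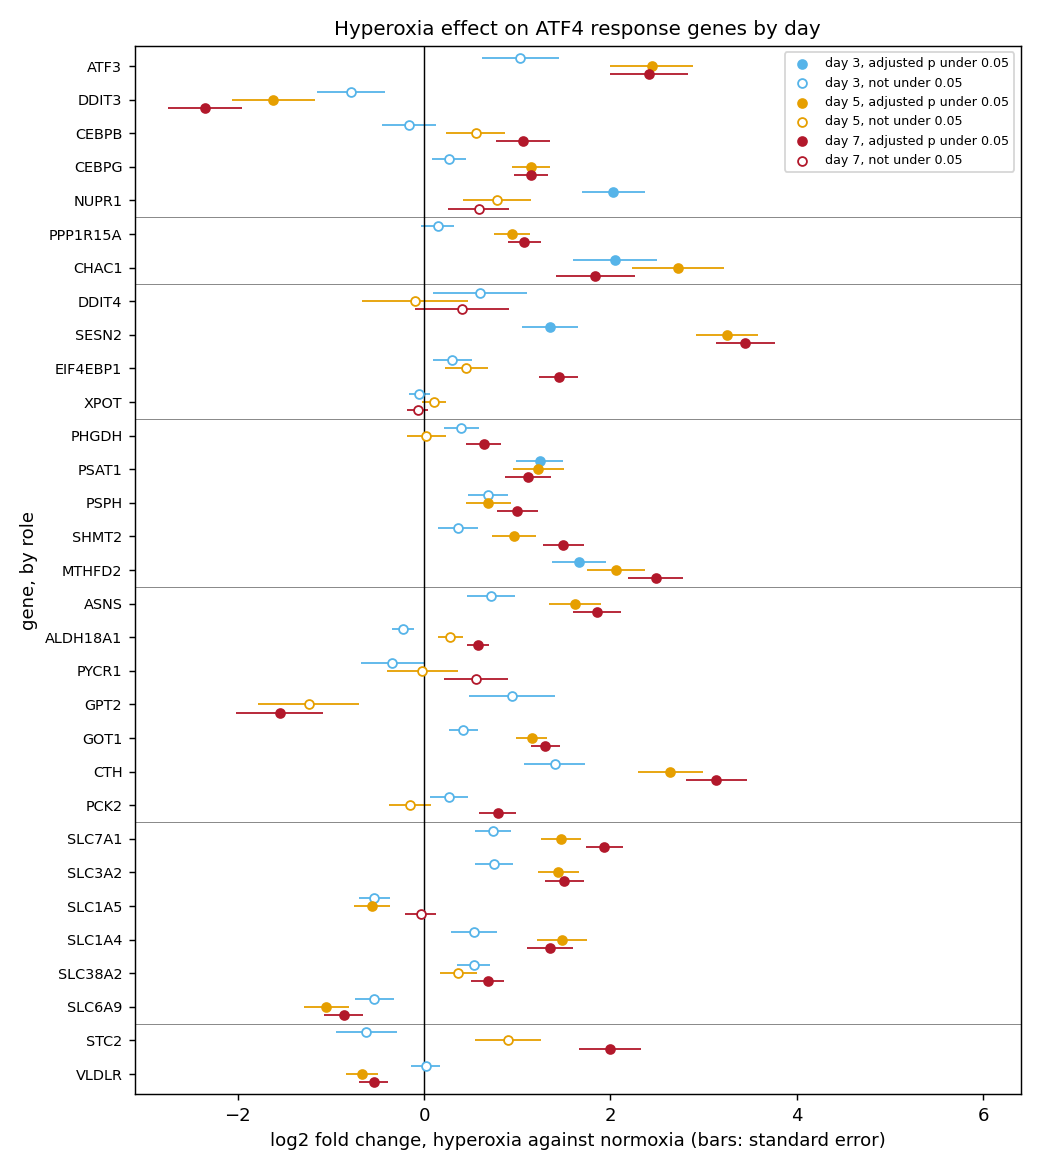
log2 fold change of hyperoxia against normoxia for each of the 31 genes (rows, grouped by role) on day 3 (blue), day 5 (orange) and day 7 (dark red), with bars for the standard error and filled points where edgeR's adjusted p was under 0.05. The filled points number 5 on day 3, 19 on day 5 and 26 on day 7, and those of DDIT3, GPT2, SLC6A9, VLDLR and SLC1A5 lie left of 0.

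All 5 genes of serine and one-carbon synthesis rose on day 7, 4 rose on day 5 and 2 on day 3, where 23.7%, 15.9% and 0.517% of all genes rose. Serine is made from a glycolytic intermediate by PHGDH, PSAT1 and PSPH in turn, and SHMT2 and MTHFD2 pass its carbon into the mitochondrial folate cycle. MTHFD2 (chromosome 2, 112299887 to 112311223) rose most. It stood at 10.98, 10.8 and 9.56 CPM in NT3 and 36.9, 17.2 and 45.2 CPM in HT3, at 20.4, 11.1 and 12.8 CPM in NT5 and 66.6 and 56.9 CPM in HT5, and at 15.2, 12.6 and 19.0 CPM in NT7 and 79.7, 95.7 and 86.7 CPM in HT7. The groups did not overlap on any day, and HT3 replicate 2, the sample with high muscle markers, was the lowest of the hyperoxia samples. The log2FC was 1.66 on day 3 (SE 0.29, edgeR adjusted p = 0.0151), 2.06 on day 5 (SE 0.31, adjusted p = 0.000431) and 2.48 on day 7 (SE 0.30, adjusted p = 1.72e-05). Without HT3 replicate 2 the day 3 value was 1.97 and kept its call, which was lost under the replicate block (adjusted p = 0.0717) and without HT3 replicate 1 or any NT3 sample.

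PSAT1, the aminotransferase of the pathway, rose on all 3 days. It stood at 9.86, 6.60 and 9.73 CPM in NT3 and 18.3, 25.4 and 18.3 CPM in HT3, at 13.6, 7.45 and 11.2 CPM in NT5 and 20.8 and 29.5 CPM in HT5, and at 10.8, 15.99 and 10.3 CPM in NT7 and 24.2, 29.6 and 26.4 CPM in HT7. Every hyperoxia sample was above every normoxia sample, of any day. The log2FC was 1.24 on day 3 (SE 0.25, edgeR adjusted p = 0.0325), 1.23 on day 5 (SE 0.27, adjusted p = 0.00403) and 1.11 on day 7 (SE 0.25, adjusted p = 0.00197). The day 5 call was lost without HT5 replicate 2 (0.95, adjusted p = 0.0816), and the day 3 call without 5 of the 6 samples, by up to an adjusted p of 0.171, and under the replicate block (0.102).

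PSPH rose on day 5 (log2FC 0.69, SE 0.24, edgeR adjusted p = 0.0418) and day 7 (0.999, SE 0.22, adjusted p = 0.00185), and SHMT2 on day 5 (0.97, SE 0.24, adjusted p = 0.00725) and day 7 (1.495, SE 0.22, adjusted p = 8.38e-05). The day 5 call of PSPH was lost with upper-quartile scaling, with only the groups compared in the fit (adjusted p = 0.114), without HT5 replicate 1 (0.37, adjusted p = 0.344) and without any of the 3 NT5 samples (0.0593, 0.12 and 0.0616). PHGDH, the committed step, rose on day 7 (0.64, SE 0.19, adjusted p = 0.0112). That call was lost without NT7 replicate 3 (0.51, adjusted p = 0.0575), and the values of PHGDH on days 3 and 5 were 0.40 and 0.02, neither called.

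Among the other enzymes, CTH (cystathionine gamma-lyase, which makes cysteine from cystathionine, chromosome 13, 95622770 to 95650977) rose most. It stood at 1.18, 0.705 and 0.967 CPM in NT3 and 3.19, 1.61 and 2.74 CPM in HT3, at 1.15, 0.827 and 0.827 CPM in NT5 and 7.43 and 4.33 CPM in HT5, and at 1.16, 1.21 and 1.37 CPM in NT7 and 9.17, 9.68 and 14.2 CPM in HT7. Normoxia samples held between 13 and 22 counts of CTH, HT3 samples between 29 and 54 and HT7 samples between 159 and 278, with no overlap on any day. CTH rose 6.24-fold on day 5 (log2FC 2.64, SE 0.35, edgeR adjusted p = 0.000188) and 8.78-fold on day 7 (3.13, SE 0.33, adjusted p = 6.12e-06). Its day 3 log2FC was 1.40 (adjusted p = 0.056).

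ASNS, asparagine synthetase, the classical reporter gene of amino acid deprivation, stood at 8.18, 7.00 and 8.93 CPM in NT3 and 12.1, 9.53 and 18.2 CPM in HT3, at 12.7, 6.17 and 9.61 CPM in NT5 and 33.5 and 24.9 CPM in HT5, and at 9.16, 9.58 and 9.78 CPM in NT7 and 30.1, 39.9 and 33.2 CPM in HT7. The NT7 samples were close together and all HT7 samples lay well above them. ASNS rose on day 5 (log2FC 1.62, SE 0.28, edgeR adjusted p = 0.000893) and day 7 (1.85, SE 0.26, adjusted p = 5.92e-05), with 0.72 on day 3 (adjusted p = 0.191).

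GPT2, the mitochondrial alanine aminotransferase, had the largest SEs of the enzymes, from 0.46 to 0.54. It stood at 69.5, 32.4 and 62.7 CPM in NT3 and 102, 168 and 46.8 CPM in HT3, at 38.0, 36.9 and 68.0 CPM in NT5 and 21.5 and 19.0 CPM in HT5, and at 133, 89.8 and 60.7 CPM in NT7 and 20.2, 52.4 and 24.2 CPM in HT7. The groups overlapped on day 3, with HT3 replicate 2, which also had the high muscle markers, as the highest sample of the series, and did not overlap on days 5 and 7. GPT2 fell on day 7 (log2FC -1.55, SE 0.47, edgeR adjusted p = 0.0135), and had -1.24 on day 5 (adjusted p = 0.0925) and 0.94 on day 3 (adjusted p = 0.343). The day 7 call was lost without HT7 replicate 1 (-1.30, adjusted p = 0.0618), HT7 replicate 3 (-1.37, adjusted p = 0.06) or NT7 replicate 1 (-1.22, adjusted p = 0.0615).

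GOT1, the cytosolic aspartate aminotransferase, rose on day 5 (log2FC 1.15, SE 0.17, edgeR adjusted p = 0.000347) and day 7 (1.30, SE 0.16, adjusted p = 1.84e-05). ALDH18A1, the entry enzyme of proline synthesis, rose on day 7 (0.58, SE 0.12, adjusted p = 0.00108), whereas its HT3 samples were all below its NT3 samples (-0.22, adjusted p = 0.392). PCK2, the mitochondrial enzyme that makes phosphoenolpyruvate, rose on day 7 (0.79, SE 0.20, adjusted p = 0.00511). PYCR1, the last enzyme of proline synthesis, passed on no day, with log2FC values of -0.34, -0.02 and 0.56, SEs from 0.34 to 0.38 and 18 to 60 counts per sample. Its HT7 samples, at 2.94, 2.84 and 2.56 CPM, were all above the NT7 samples at 2.26, 1.35 and 2.06 CPM. The value of PYCR1 on day 5 was 0.45 under the replicate block and 0.42 without NT5 replicate 3.

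Of the 6 amino acid transporters measured, 4 rose and 1 fell on day 7 (23.7% and 23.7% of all genes), and 3 rose and 2 fell on day 5 (15.9% and 15.4%). SLC7A1, the carrier of arginine and other cationic amino acids, stood at 14.5, 14.1 and 13.8 CPM in NT3 and 23.6, 18.1 and 29.1 CPM in HT3, at 21.9, 16.6 and 16.8 CPM in NT5 and 41.9 and 59.9 CPM in HT5, and at 14.0, 16.3 and 19.8 CPM in NT7 and 73.4, 55.3 and 62.9 CPM in HT7. No day had overlapping groups. SLC7A1 rose on day 5 (log2FC 1.47, SE 0.21, edgeR adjusted p = 0.000318) and day 7 (1.94, SE 0.20, adjusted p = 5.71e-06), and had 0.74 on day 3 (adjusted p = 0.0903).

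SLC3A2, the heavy chain that amino acid exchangers need to reach the cell surface, rose from 156 to 253 CPM in NT7 to 459.7 to 654 CPM in HT7 (log2FC 1.51, SE 0.21, edgeR adjusted p = 5.11e-05), and also on day 5 (1.44, SE 0.22, adjusted p = 0.000482). SLC1A4, a carrier of alanine, serine and cysteine, rose on day 5 (1.48, SE 0.27, adjusted p = 0.00123) and day 7 (1.35, SE 0.25, adjusted p = 0.000467). SLC38A2, the adaptive glutamine and alanine carrier, rose on day 7 (0.68, SE 0.18, adjusted p = 0.00575), when its HT7 samples stood at 999.8, 575 and 739.6 CPM against 466 to 493 CPM in NT7.

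SLC6A9, the glycine transporter GLYT1, had lower values in hyperoxia on each day, of which day 3 did not pass the test (log2FC -0.53, edgeR adjusted p = 0.23). It stood at 44.4, 52.9 and 49.1 CPM in NT3 and 28.2, 38.4 and 34.4 CPM in HT3, at 31.3, 38.1 and 36.9 CPM in NT5 and 20.8 and 13.5 CPM in HT5, and at 27.8, 29.8 and 33.9 CPM in NT7 and 12.6, 23.2 and 14.5 CPM in HT7. The groups did not overlap on any day, and normoxia levels of day 7 were all below those of day 3. SLC6A9 fell on day 5 (log2FC -1.05, SE 0.24, edgeR adjusted p = 0.00539) and day 7 (-0.86, SE 0.21, adjusted p = 0.00394). The day 5 call was lost without HT5 replicate 2 (-0.76, adjusted p = 0.111). Erythroid cells, in which this transporter is well expressed, had summed markers (5 genes) of 52.5 to 73.0 CPM in HT7 and 128 to 226 CPM in NT7, and of 74.7 to 83.6 CPM in HT5 and 103 to 192 CPM in NT5, with 4 and 2 of the 5 markers called lower on days 7 and 5 (23.7% and 15.4% of all genes). Their part in the fall of SLC6A9 was not tested.

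SLC1A5, the glutamine carrier ASCT2, stood at 69.2, 86.6 and 87.4 CPM in NT3 and 51.6, 55.6 and 60.9 CPM in HT3, at 65.5, 81.3 and 83.6 CPM in NT5 and 53.2 and 51.1 CPM in HT5, and at 63.2, 79.5 and 72.5 CPM in NT7 and 79.7, 50.0 and 79.9 CPM in HT7. Hyperoxia samples lay below normoxia samples on days 3 and 5, and on day 7 HT7 replicate 2 was the lowest while the other HT7 samples were the highest. SLC1A5 fell on day 5 (log2FC -0.56, SE 0.19, edgeR adjusted p = 0.0355). This call was lost under the replicate block (-0.49, adjusted p = 0.125), with only the groups compared in the fit, without either HT5 sample (adjusted p = 0.0852 and 0.191) and without NT5 replicate 2 (0.0931) or 3 (0.099).

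STC2, a secreted glycoprotein induced by endoplasmic reticulum stress (chromosome 3, 54303438 to 54313460), changed side between days. It stood at 3.25, 2.42 and 3.30 CPM in NT3 and 1.36, 1.44 and 3.03 CPM in HT3, at 1.82, 3.31 and 2.02 CPM in NT5 and 4.26 and 4.60 CPM in HT5, and at 1.37, 1.42 and 2.12 CPM in NT7 and 5.88, 6.53 and 7.22 CPM in HT7. The groups overlapped on day 3 and were apart on days 5 and 7, with 20 to 34 counts per sample in NT7 and 102 to 141 in HT7. STC2 rose on day 7 (log2FC 1.99, SE 0.33, edgeR adjusted p = 0.000234), and its values on days 3 and 5 were -0.62 (adjusted p = 0.39) and 0.90 (adjusted p = 0.0655). Without NT5 replicate 2 the day 5 value was 1.22 and passed the test (adjusted p = 0.0324). DESeq2's Wald test over all samples also called STC2 on day 5 (adjusted p = 0.0479).

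VLDLR, the receptor that takes up triglyceride-rich lipoproteins, stood at 86.2, 93.6 and 67.0 CPM in NT3 and 91.8, 84.2 and 73.8 CPM in HT3, at 70.6, 81.7 and 76.1 CPM in NT5 and 58.2 and 37.8 CPM in HT5, and at 70.1, 71.4 and 68.3 CPM in NT7 and 53.5, 45.8 and 45.1 CPM in HT7. The groups overlapped on day 3 and were apart on days 5 and 7. VLDLR fell on day 5 (log2FC -0.67, SE 0.17, edgeR adjusted p = 0.0106) and day 7 (-0.54, SE 0.15, adjusted p = 0.00985), the former neither without HT5 replicate 2 (-0.38, adjusted p = 0.196) nor with only the HT5 and NT5 samples in the fit (adjusted p = 0.073). VLDLR is abundant in endothelium, whose summed markers on day 7 are given above and were 1172 to 1253 CPM in HT5 against 1901 to 2360 CPM in NT5. Among these markers VWF went the other way on day 5, with 3068 and 4280 counts in HT5 and 1534 to 1936 in NT5. The part of endothelial cells in the fall of VLDLR was not tested.

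**Figure D3:**
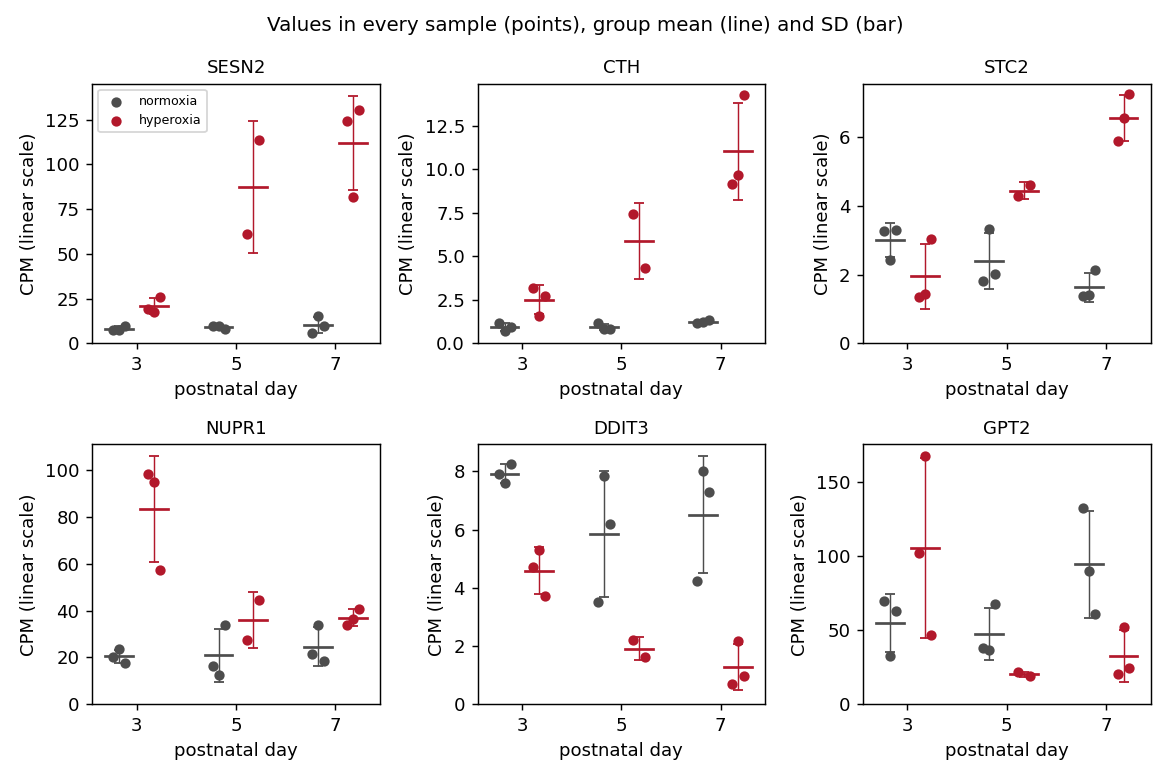
CPM on a linear scale in every sample for SESN2, CTH, STC2, NUPR1, DDIT3 and GPT2 by postnatal day, in normoxia (grey) and hyperoxia (red), with the group mean as a line and the SD as a bar (n = 3, and n = 2 in HT5). SESN2, CTH and STC2 are highest in HT7, with means of 112, 11.03 and 6.55 CPM, NUPR1 is highest in HT3 at 83.5 CPM, and DDIT3 has its lowest mean in HT7 at 1.28 CPM.

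Whether the effect of hyperoxia differed between days was tested as the difference between the log2FC of 2 days. Between day 7 and day 3 the difference passed for 15 of the 31 genes, 12 with a higher log2FC on day 7 and 3 with a lower one (9.52% and 11% of all genes tested). The larger were those of STC2 (2.61, SE 0.47, edgeR adjusted p = 0.00267), SESN2 (2.10, SE 0.43, adjusted p = 0.00507), CTH, CEBPB, SLC7A1, EIF4EBP1, SHMT2, ASNS, PPP1R15A, CEBPG, GOT1 and ALDH18A1, and the smaller those of GPT2 (-2.49, SE 0.65, adjusted p = 0.0168), DDIT3 and NUPR1. Of the 5 genes called on day 3, SESN2 and NUPR1 thus differed between the days, whereas the differences for CHAC1 (-0.21, SE 0.60), PSAT1 (-0.13, SE 0.35) and MTHFD2 (0.82, SE 0.40) did not pass. Between day 5 and day 3 only SESN2 passed (1.90, SE 0.44, adjusted p = 0.0494), where 1.46% of all genes passed in either direction. Between day 7 and day 5 no gene of the 13142 passed in edgeR, 4 of the 31 and 1125 of the 13142 had an unadjusted p under 0.05, and DESeq2 called 0 of the 31. The day 7 against day 3 calls of DDIT3, CEBPB, NUPR1, ASNS and CEBPG were lost without 10, 10, 10, 9 and 7 of the 12 samples in turn, and the day 5 against day 3 call of SESN2 without 9 of 11, with 1.39 without HT5 replicate 2 (edgeR adjusted p = 0.341). The latter call was also lost with the replicate block (1.76, adjusted p = 0.124), as was that of CEBPB between days 7 and 3 (1.19, adjusted p = 0.0754).

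Over age alone, none of the 31 genes changed between NT3 and NT7, as none of all genes did in edgeR. At an unadjusted p under 0.05 there were 3 of the 31, SLC6A9, STC2 and CEBPB, and 824 of the 13142, and DESeq2 called 0 of the 31. The largest of these differences in normoxia were those of CHAC1 (0.96, SE 0.47, edgeR adjusted p = 0.817) and STC2 (-0.86, SE 0.33, adjusted p = 0.698). Within hyperoxia, 17 of the 31 genes were higher and 5 lower in HT7 than in HT3 (22.3% and 22% of all genes). These comparisons share their samples with those above and are no separate evidence. SESN2 was 5.36-fold higher in HT7 than in HT3 and CTH 4.38-fold higher, while NUPR1 was 0.444-fold and DDIT3 0.278-fold of its HT3 level. CHAC1, PSAT1 and PSPH, which were above normoxia in every hyperoxia sample, did not pass between HT3 and HT7.

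The genes that act upstream of ATF4 were taken from a list of the eIF2 kinases, eIF2, its exchange factor eIF2B and their regulators, of which 20 were tested. None passed on day 3, 10 rose and 1 fell on day 5, and 12 rose and none fell on day 7, with a median log2FC of 0.53 on day 7, while 15.9% of all genes rose and 15.4% fell on day 5 and 23.7% rose and 23.7% fell on day 7. EIF2AK4, the kinase GCN2 that senses uncharged tRNA, rose on day 5 (log2FC 0.48, SE 0.13, edgeR adjusted p = 0.0114) and day 7 (0.50, SE 0.12, adjusted p = 0.00266). EIF2AK3 (PERK, the kinase of the endoplasmic reticulum) had 0.17 and 0.16 on these days, EIF2AK2 (PKR, the kinase for double-stranded RNA) 0.42 and -0.28, and none of these values passed. EIF2AK1 (HRI, the heme-regulated kinase) fell on day 5 (-0.34, SE 0.12, adjusted p = 0.0491) and had -0.14 on day 7. The phosphorylation by which these kinases act is not measured by mRNA counts.

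The largest day 7 changes of that list were those of the eIF2B subunits EIF2B3 and EIF2B5 and of the eIF2 subunits EIF2S1 and EIF2S3. EIF2B3 stood at 12.2, 7.69 and 11.7 CPM in NT7 and 39.5, 23.2 and 32.8 CPM in HT7 (log2FC 1.60, SE 0.24, edgeR adjusted p = 9.12e-05). EIF2B5 had a log2FC of 1.41 (SE 0.17, adjusted p = 1.7e-05), EIF2S1, the alpha subunit that the kinases phosphorylate, 1.33 (SE 0.14, adjusted p = 5.71e-06) and EIF2S3 1.14 (SE 0.32, adjusted p = 0.00863).

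Of 26 other reported ATF4 targets tested, 3 rose on day 3, 13 rose and 3 fell on day 5, and 15 rose and 5 fell on day 7 (median log2FC 0.29, 0.62 and 0.72). On day 3, 0.517% of all genes rose. The share that fell was below that of all genes on both later days (15.4% and 23.7%), and the share that rose was above it (15.9% and 23.7%). The 12 aminoacyl-tRNA synthetases of that list, which charge tRNAs, accounted for 2 of the rises on day 3 and 10 on each later day, and 1 of the falls on day 7. AARS1, for alanine, stood at 122, 132 and 149 CPM in NT7 and 712, 475 and 774 CPM in HT7 (log2FC 2.28, SE 0.29, edgeR adjusted p = 2.7e-05). SQSTM1, the autophagy receptor p62, had a log2FC of 2.33 on day 7 (SE 0.24, adjusted p = 5.99e-06). VEGFA, the vascular growth factor, fell from 1130.2, 1395 and 1379 CPM in NT7 to 277, 334 and 238 CPM in HT7 (-2.20, SE 0.22, adjusted p = 4.95e-06). SLC7A11, the cystine carrier that works with SLC3A2, had 0 to 9 counts in the 9 normoxia samples and 34 to 3904 in the 8 hyperoxia samples, and with so few counts in normoxia the size of its rise is poorly set. SLC7A11 and SQSTM1 are also known targets of NRF2, so this list does not mark ATF4 alone. FGF21 and GDF15 are not analysed here.

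**Figure D4:**
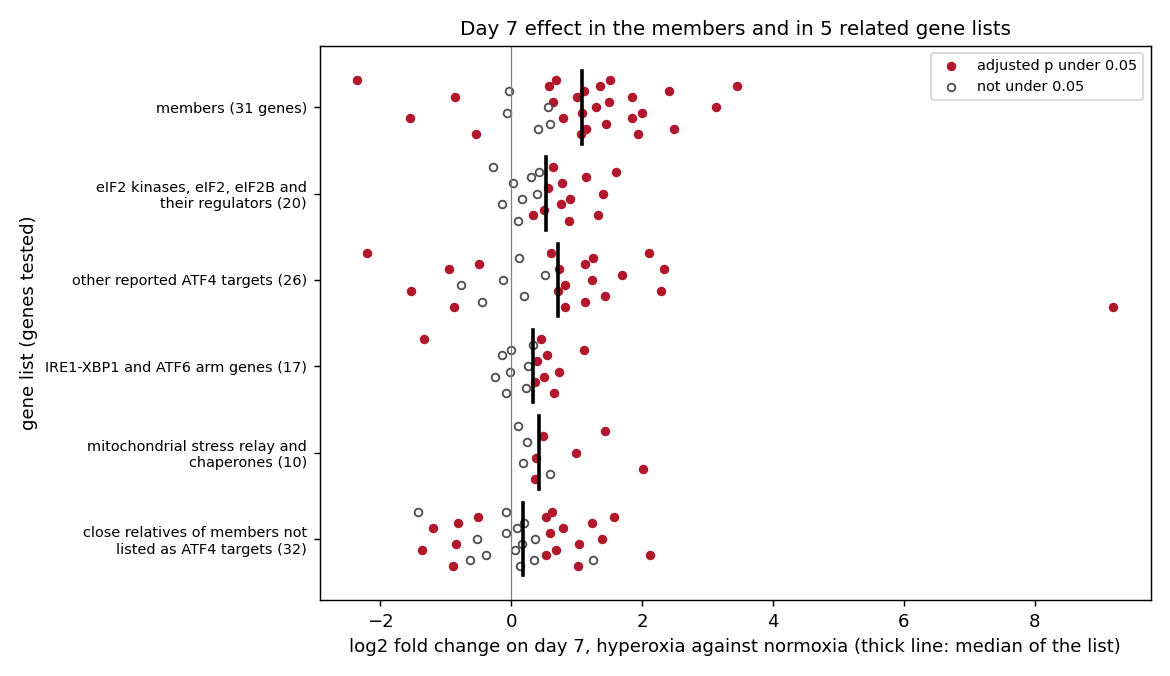
Day 7 log2 fold change of hyperoxia against normoxia for each tested gene of the 31 and of 5 related lists (rows, number of genes in brackets), with filled points where edgeR's adjusted p was under 0.05 and a thick line at the median of each list. The medians are 1.08 for the 31 genes, 0.53, 0.72, 0.34 and 0.43 for the lists of the pathway, and 0.18 for the close relatives, and SLC7A11 is the point beyond 9.

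The other arms of the unfolded protein response run through IRE1 with XBP1 and through ATF6. Of their 17 genes tested, none passed on day 3, 3 rose and 1 fell on day 5, and 8 rose and 1 fell on day 7, with a median log2FC of 0.34 on day 7. Of all genes, 15.9% rose and 15.4% fell on day 5, and 23.7% rose and 23.7% fell on day 7. The share of this list that rose on day 5 was near that of all genes. ATF6 itself rose on day 7 (log2FC 1.11, SE 0.14, edgeR adjusted p = 2.87e-05), as did HYOU1, a chaperone (0.73, SE 0.12), and EDEM1, a factor of protein disposal (0.66, SE 0.12). DERL3, of the same disposal pathway, fell (-1.33, SE 0.37, adjusted p = 0.00845). HSPA5, the main chaperone of the endoplasmic reticulum, was looked up after the values were seen, and had a day 7 value of 0.50 (adjusted p = 0.0127).

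Of 10 genes of the mitochondrial stress relay and its chaperones and proteases, none passed on day 3, 5 rose on day 5 and 6 on day 7, with none falling. Of all genes, 15.9% rose and 15.4% fell on day 5, and 23.7% rose and 23.7% fell on day 7. HSPA9, the mitochondrial HSP70, stood at 143, 112 and 139 CPM in NT7 and 606, 380.4 and 607 CPM in HT7 (log2FC 2.02, SE 0.23, edgeR adjusted p = 1.02e-05). HSPD1, the mitochondrial HSP60, had 1.43 (SE 0.14, adjusted p = 3.91e-06), LRPPRC, which stabilises mitochondrial mRNAs, 0.99 (SE 0.14), and the protease subunit CLPP 0.49 (SE 0.16, adjusted p = 0.0172).

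Close relatives of the 31 genes that are not listed as ATF4 targets gave a background from the same gene families. Of 32 tested, 12 rose and 6 fell on day 7, and 8 rose and 3 fell on day 5, with medians of 0.18 and 0.13. Over all genes the shares were 23.7% higher and 23.7% lower on day 7 and 15.9% and 15.4% on day 5. The largest changes among those called were those of LRP8, a lipoprotein receptor related to VLDLR (2.13, SE 0.31, edgeR adjusted p = 8.58e-05), SLC1A3, a glutamate carrier (1.57, SE 0.24, adjusted p = 0.000124), and TRIB1 and TRIB2, pseudokinases related to TRIB3 (1.38, SE 0.21, and -1.36, SE 0.23). Pairs that moved apart on day 7 were picked after the values were seen. They were SESN2 with SESN1 at -0.89 (SE 0.16, adjusted p = 0.000405), EIF4EBP1 with EIF4EBP2 at -0.82 (SE 0.11, adjusted p = 4.34e-05), and STC2 with STC1 at -1.19 (SE 0.23, adjusted p = 0.000596).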

How the data were processed

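The authors homogenized right lungs, made stranded poly(A) libraries and sequenced paired-end reads. They deposited raw counts for each locus, to which no scaling was applied. The submitters' processing notes name FastQC, STAR 2.7.10a and the rabbit build OryCun2.0, and the counting program is not given in the sources used here. In the deposited count table, 948 entries at loci with several genes repeat the counts of the locus, and none of the 31 genes is among them.

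The 17 samples were fitted together in edgeR 4.0.16 (R 4.3.3), with filterByExpr, TMM factors from 0.958 to 1.05, a quasi-likelihood model of 6 group means, a prior count of 0.125 and Benjamini-Hochberg adjustment over 13142 genes. HT5 has 2 samples and borrows its spread from the other groups. CPM used TMM-scaled totals of the tested entries. The members and lists were chosen with earlier results of these data known. Per-sample values were given for the 10 largest day 7 changes, genes called on day 3, genes called lower (up to 5) and the 5 largest differences between days 7 and 3, and also for EIF4EBP1, SLC38A2, PYCR1 and, in HT5, CEBPB, which were chosen after their values were seen. From each related list up to 4 called genes with the largest day 7 change were named, with the eIF2 kinases and SLC7A11. The study speaks of independent lungs without stating the litters, and p-values measure the spread between them. On simulated counts with 200 changed genes (log2 change of 2) among 13142, edgeR recovered 95%, 94.5% and 95.5% on days 3, 5 and 7, with 4, 7 and 7 other calls. That change is larger than the median log2FC of the 31 genes (0.42, 0.78 and 1.08), and recovery of smaller changes was not simulated.

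Deviations of same-numbered samples from their group means correlated at 0.166, 0.131 and 0.199 on day 3, 0.264 and 0.141 on day 5, and 0.174, 0.109 and 0.0695 on day 7. Of the days with 3 pairs, only day 3 had every correlation over 0.1, so the replicate block is given beside the day 3 results. The correlations of day 5, with 2 pairs, were also over 0.1. Samples with different numbers were not compared. What the replicate numbers stand for is not stated. The alternatives were DESeq2 1.42.0, RLE and upper-quartile scaling, no count filter, 1 entry per locus, an adjusted p under 0.01, only the groups compared, the replicate block and leaving out each sample. Figures were drawn with matplotlib 3.10.9 in Python 3.11.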

Additional observations from a re-analysis of the deposited data

Results flagged for a closer look

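The effect of hyperoxia differed between days for the genes below, by the test of the difference between the log2FC of 2 days (edgeR's quasi-likelihood test, adjusted over 13142 genes). Against day 3, the log2FC of day 7 was larger by 2.61 for STC2 (adjusted p = 0.00267), 2.10 for SESN2 (0.00507), 1.73 for CTH (0.0169), 1.22 for CEBPB (0.0463), 1.20 for SLC7A1 (0.00885), 1.14 for EIF4EBP1 (0.0159), 1.13 for SHMT2 (0.0191), 1.13 for ASNS (0.0388), 0.93 for PPP1R15A (0.0171), 0.88 for CEBPG (0.0272), 0.88 for GOT1 (0.013) and 0.81 for ALDH18A1 (0.00578). It was smaller for GPT2 (-2.49, 0.0168), DDIT3 (-1.57, 0.0496) and NUPR1 (-1.44, 0.041). The log2FC of day 5 was larger than that of day 3 by 1.90 for SESN2 (0.0494).

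STC2, SESN2, CTH, SLC7A1, EIF4EBP1, SHMT2, PPP1R15A, GOT1, ALDH18A1 and GPT2 kept the day 7 against day 3 call whichever of the 12 samples was left out, with adjusted p up to 0.05 for SHMT2 and GPT2. The other 5 were near the threshold, and their differences kept their direction whichever sample was left out. DDIT3 lost the call without 10 of the 12 samples, all but HT7 replicate 2 and NT7 replicate 1 (adjusted p up to 0.12, without HT7 replicate 3), with differences from -2.17 without HT7 replicate 2 to -1.27 without HT7 replicate 1. It also lost the call with upper-quartile scaling (0.0557), with no count filter (0.0513) and with 1 entry per locus (0.0502). CEBPB lost it without 10, all but HT7 replicate 2 and NT3 replicate 3 (up to 0.128, without HT7 replicate 1), with differences from 0.93 to 1.38. NUPR1 lost it without 10, all but HT3 replicate 3 and NT7 replicate 3 (up to 0.115, without NT7 replicate 2), with differences from -1.65 to -1.14. ASNS lost it without 9, all but HT3 replicate 3, HT7 replicate 1 and NT3 replicate 2 (up to 0.0908, without HT3 replicate 2), with differences from 0.94 to 1.43. CEBPG lost it without 7, which were HT3 replicates 1 and 2, HT7 replicates 1 and 3, NT3 replicates 1 and 2 and NT7 replicate 3 (up to 0.074, without HT7 replicate 3), with differences from 0.74 to 1.02. The day 5 against day 3 call of SESN2 was lost without 9 of 11 samples, all but HT3 replicate 3 and HT5 replicate 1, and its difference was 1.39 without HT5 replicate 2 (adjusted p = 0.341). Groups of 2 or 3 samples are too small for the check of single outlying samples, which was not applied.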

How the results depend on the processing

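The counts of genes called on day 7, within hyperoxia and between the normoxia days stayed within 1.5 times their value under every alternative run. On day 3, the 5 called genes became 0 with an adjusted p under 0.01, 1 with the replicate block, 8 with DESeq2 and 0 to 3 when each sample was left out, all of them higher. On day 5, the 4 genes called lower became 1 with an adjusted p under 0.01, 2 with only the groups compared (DDIT3, SLC1A5 and VLDLR lost, GPT2 gained) and 0 to 4 when each sample was left out (0 without HT5 replicate 2). For day 7 against day 3, the 15 became 4 with an adjusted p under 0.01 (4 higher, 0 lower), and the 3 lower became 1 or 2 when each sample was left out. For day 5 against day 3, the 1 gene became 0 with an adjusted p under 0.01, with no count filter, with 1 entry per locus and with the replicate block, 3 with DESeq2 and 0 to 5 when each sample was left out (0 to 4 higher, 0 or 1 lower). The replicate block changed no call other than those named on day 3, for NUPR1 (gained) and SLC1A5 (lost) on day 5, CEBPB for day 7 against day 3 (adjusted p = 0.0754) and SESN2 for day 5 against day 3 (0.124). It also turned the uncalled day 5 value of PYCR1 to 0.45. Upper-quartile scaling turned 2 values near 0, that of VLDLR on day 3 to -0.013 and that of PHGDH on day 5 to -0.0038. Leaving out single samples turned the sign only of values that were not called over all samples. On day 3 these ran from -0.30 to 0.0011 for CEBPB and from -0.11 to 0.12 for VLDLR. On day 5 they ran from -0.23 to 1.06 for CEBPB, -0.31 to 0.14 for DDIT4, -0.23 to 0.24 for PHGDH, -0.29 to 0.42 for PYCR1 and -0.38 to 0.052 for PCK2. On day 7 they ran from -0.37 to 0.99 for DDIT4, -0.13 to 0.0046 for XPOT and -0.14 to 0.16 for SLC1A5. Scaling moved the median log2FC of all genes by less than 0.1. Counts limit what can be said of CHAC1, DDIT3, CTH, PYCR1 and STC2, whose lowest samples held 4, 12, 13, 18 and 20 counts. The causes of these changes were not tested.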
